A study of Macaca mulatta with 26 samples.

Results

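The retina of rhesus macaques (Macaca mulatta) was compared between mid-day and dawn by sequencing of total RNA. The comparison takes 6 of the 26 libraries of the study by their labels: 3 labelled Retina Day, from animals killed between 1100 and 1300, and 3 labelled Retina Dawn, from animals killed between 0500 and 0700. The 6 retina libraries from dusk (1700 to 1900) and midnight (2300 to 0100) entered the fit to estimate the spread between libraries of the same time. The other libraries, of pineal gland and of pooled control tissues, were not part of the comparison. All animals were untreated adults of 3 to 33 years and both sexes, gathered over 11 years. They were held for at least 6 weeks in cages lit at about 325 lux, 12 h in each day, from 0600. There were 12 animals, 3 at each time, so that mid-day and dawn came from different animals. The dawn window spans the moment of lights on, and the labels do not say on which side of it each animal was taken. Dim red light and a blindfold are described for the animals of dusk and night, and dawn is not named there. Each extract came from a piece of frozen retina, and its place in the retina is not given.

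The vertebrate retina carries its own circadian clock, in which CLOCK and ARNTL drive the PER, CRY and NR1D genes, whose products feed back on their own transcription. Together with light itself, this clock is known to shift the retina between a rod-dominated night state and a cone-dominated day state, with melatonin made by photoreceptors as a night signal and dopamine from amacrine cells as a day signal. Photoreceptors are also among the most energy-demanding cells of the body, since their ion channels stay open in darkness and close in light.

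Most differences between mid-day and dawn were small. The retina at mid-day had higher levels of the heat shock genes HSPA8 and HSPD1, of the glycolytic enzymes PFKL and ENO1, and of the photoreceptor transcription factor RAX2. It had lower levels of the synapse genes MPP4 and SYT1, the Argonaute gene AGO4 and the clock repressor CRY1. Each of these 9 genes had an adjusted p under 0.05 in the authors' deposited table of this comparison. In each the 3 mid-day libraries did not overlap the 3 dawn libraries, as in all 120 genes at that threshold in that table. The lack of overlap rests on the same 6 libraries and so is not separate support. The limma test on log2(FPKM + 0.5), where FPKM is fragments scaled to gene length and library total, called none of the 9 genes. These 9 are examples from the 120. In the authors' deposited table HSPA4, an Hsp70 relative, was lower at mid-day, with an adjusted p of 0.00089. Larger differences occurred too, such as ANXA4, with a mean 3.08-fold higher at dawn, and ATOH8, with a mean 3.41-fold higher at mid-day. Among the core clock genes tested, only RORB and CRY1 had an unadjusted limma p under 0.05, and CRY1 lost it without the libraries mid-day 1 and dawn 2.

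In numbers, limma tested the 21890 genes that reached an FPKM of 1 in 3 or more of the 12 retina libraries, and called 0 of them (0%) at a Benjamini-Hochberg adjusted p under 0.05. The smallest adjusted p from limma was 0.380. The unadjusted p was under 0.05 for 1707 genes (7.8%), where 1094.5 would be reached by chance alone if no gene differed. Of these, 1072 (4.9%) were higher at mid-day and 635 (2.9%) lower, so that 62.8% were higher. That split depended on scaling, and 47.1% were higher after quantile normalization and 39.5% after centring each library on its median. The number of genes at that p depended on it too, with 1277 after quantile normalization. After median centring it was 1016, under the 1094.5 reached by chance alone. The groups did not overlap in 1593 genes higher at mid-day (7.28%) and in 1020 lower (4.66%). Of 14106 genes with an adjusted p in the authors' deposited table, 120 (0.851%) had an adjusted p under 0.05, with 66 higher (0.468%) and 54 lower (0.383%) at mid-day. The absolute log2 fold change of those 120 genes in the authors' deposited table ran from 0.191 to 1.20, with a median of 0.430. Of the 120, 109 had an unadjusted limma p under 0.05, which rests on the same mid-day and dawn libraries and so is not separate support.

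Depth was similar in all 6 libraries, at 16.9 to 18.3 M reads assigned to genes at dawn and 18.2 to 20.2 M at mid-day. A pair of libraries stood apart in another way. The libraries labelled mid-day 1 and dawn 2 had 45.7% and 44.8% of genes at 0, where the other 10 retina libraries had 33.5% to 35.2%. Both lay below all other 10 retina libraries in 4452 of the tested genes and above all of them in 923. One example is SLC18A2, the vesicular monoamine transporter, at 13.2, 0.869 and 14.0 FPKM in dawn 1, 2 and 3 and at 1.13, 15.1 and 13.9 FPKM in mid-day 1, 2 and 3. Each group holds 1 such library. Results are therefore given also without both, and in 2 sets that share no library: mid-day 1 minus dawn 2, and mid-day 2 and 3 minus dawn 1 and 3. For each gene, the log2 difference without both libraries is the same quantity as that of the second of these sets. Across the tested genes these sets had the same sign in 50.5%, and their Pearson r was 0.0799 over genes, which are not independent replicates. Without both libraries, 118 of the 120 genes called in the authors' deposited table could be tested by limma, and 84 of them had an unadjusted p under 0.05, where 109 had with all libraries. The 120 genes were called from these same libraries, so neither count is separate support.

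The tissue matched its label. GNAT1, the alpha subunit of rod transducin, was at 1097, 1056 and 1024 FPKM in the dawn libraries and at 936, 1022 and 1058 FPKM in the mid-day libraries, against 1.78 and 1.40 FPKM in the control pools. The summed FPKM of 12 rod phototransduction genes was 5941 to 6198 at dawn and 5301 to 6065 at mid-day. Other cell types varied more between libraries, as the plot of marker sums shows. Ganglion cell markers summed to 277, 386 and 304 FPKM in dawn 1, 2 and 3 and to 652, 216 and 269 FPKM in mid-day 1, 2 and 3, so that mid-day 1 alone was high. Pigment epithelium markers summed to 66.9 to 216 FPKM at dawn and 49.9 to 114 at mid-day. Red cell transcripts were high in mid-day 2, where HBB was at 84.9 FPKM against 5.16 to 11.5 in the other 5 libraries. Transcripts of the mitochondrial genome summed to 1801 FPKM in mid-day 2 and to 82.6 to 304 FPKM in the other 5. XIST was detected above 0.04 FPKM only in mid-day 1 among the 6, so that the sexes were not balanced between the groups. In bulk tissue, fewer cells of a type and less RNA per cell cannot be told apart.

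**Figure D1:**
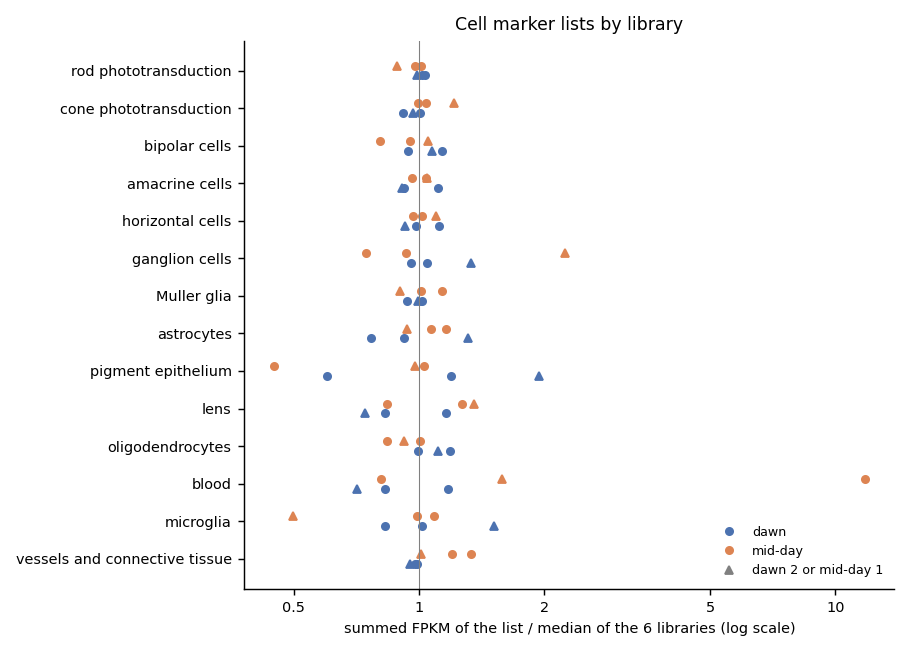
Summed FPKM of 14 marker lists in the 3 dawn and 3 mid-day libraries, each divided by the median of the 6 (log axis, 1 point per library; triangles are dawn 2 and mid-day 1). Rod genes lie close to 1 in all 6 libraries, while ganglion cell genes are high in mid-day 1 and blood genes in mid-day 2.

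The core clock differed little. RORB, a nuclear receptor that drives clock genes and is needed for rod development in mice, was at 92.6, 95.0 and 97.9 FPKM at dawn and at 59.3, 67.5 and 84.2 FPKM at mid-day. All 3 mid-day libraries lay below all 3 dawn libraries, with a log2 difference of -0.45 ± 0.12 (SE, limma adjusted p = 0.425). Its levels at dusk, 59.3 to 71.2 FPKM, were like those of mid-day, and its levels at midnight, 83.6 to 92.3 FPKM, were closer to dawn. CRY1, a repressor of CLOCK and ARNTL, was at 13.3, 12.4 and 11.9 FPKM at dawn and 9.31, 8.46 and 10.1 FPKM at mid-day. Its groups did not overlap either, and the log2 difference was -0.42 ± 0.18 (SE) with a limma adjusted p of 0.619. Without mid-day 1 and dawn 2 the log2 difference of CRY1 was -0.43 and that of RORB -0.33, and the unadjusted p of RORB alone stayed under 0.05. The authors' deposited table gave CRY1 a log2 fold change of -0.40 ± 0.10 (SE) and an adjusted p of 0.021.

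None of the other tested activators, repressors and output factors had an unadjusted p under 0.05. The activators CLOCK, ARNTL and RORA differed by -0.03, -0.12 and -0.06 on the log2 scale. ARNTL was at 30.6, 25.4 and 29.4 FPKM at dawn and 23.8, 26.6 and 27.7 FPKM at mid-day, and the groups overlapped. NPAS2, a partner of ARNTL, was too low to be tested, at 0.874 to 0.961 FPKM at dawn and 0.715 to 0.749 at mid-day, and ARNTL2 was too low as well. Among the repressors, PER1 and PER2, which light induces in the clock of the mammalian brain, differed by 0.14 ± 0.17 and 0.13 ± 0.17 (SE) on the log2 scale. PER3, CRY2, NR1D1, NR1D2 and TIMELESS lay between -0.22 and 0.02. NR1D1, which represses ARNTL, was at 16.5 to 17.7 FPKM at dawn and at 13.3, 13.2 and 17.2 FPKM at mid-day, so that mid-day 3 lay among the dawn values. The output factors DBP, TEF, HLF, NFIL3, BHLHE40 and BHLHE41, which carry the rhythm to other genes, ran from -0.18 (BHLHE41) to 0.29 (BHLHE40). Of the kinases and ligases that set the stability of clock proteins, CSNK1D was at 6.59 to 7.21 FPKM at dawn and 7.57 to 8.41 at mid-day (log2 difference 0.20 ± 0.08 SE, limma adjusted p = 0.569), and CSNK1E, FBXL21 and BTRC did not pass that level. CSNK1D did not pass it without mid-day 1 and dawn 2, where its log2 difference was 0.14.

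**Figure D2:**
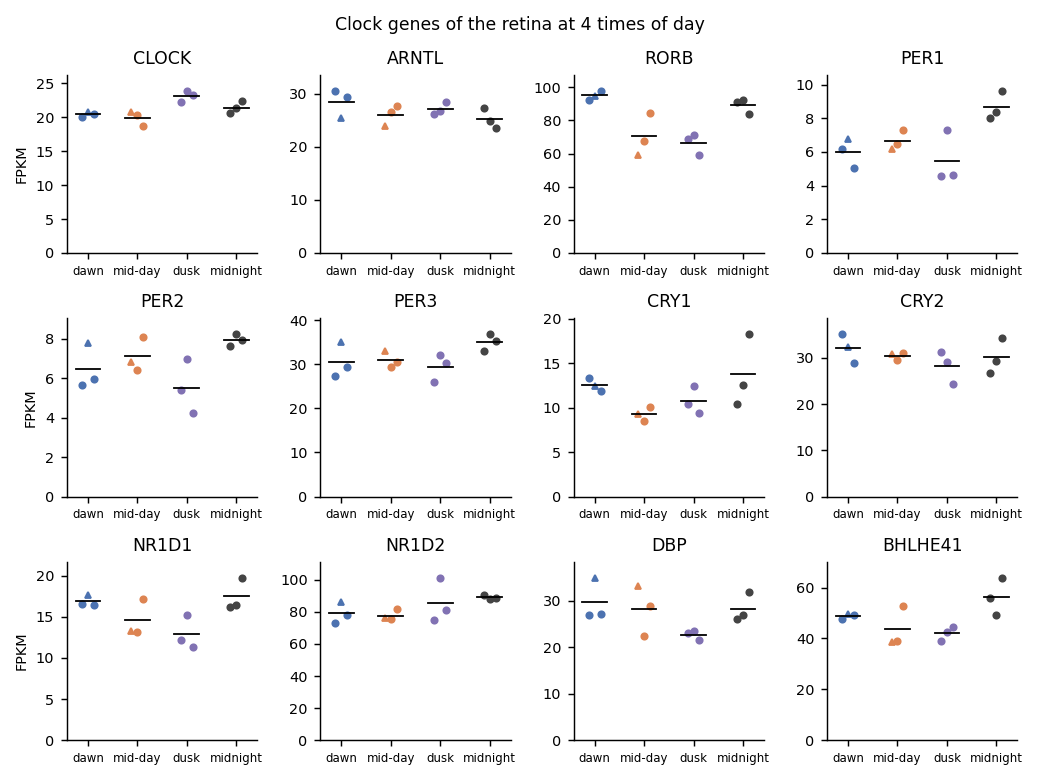
FPKM of 12 clock genes in the 12 retina libraries at dawn, mid-day, dusk and midnight (1 point per library, bar at the mean of 3; triangles are dawn 2 and mid-day 1). RORB and CRY1 have no overlap between dawn and mid-day, and the other genes overlap.

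Melatonin and dopamine genes were variable within each time. AANAT, which makes the precursor of melatonin, was at 68.1, 55.0 and 87.1 FPKM at dawn and 59.3, 51.3 and 68.6 FPKM at mid-day, with overlapping groups and a limma adjusted p of 0.903. ASMT, which completes melatonin synthesis, was at 7.50, 4.07 and 2.13 FPKM at dawn and at 0.470, 0.554 and 4.51 FPKM at mid-day (limma adjusted p = 0.679). TPH1, the first enzyme, ran from 8.01 to 15.9 FPKM at dawn and from 11.6 to 20.5 FPKM at mid-day. Receptors were led by DRD4, a photoreceptor dopamine receptor, at 63.3 to 91.7 FPKM at dawn and at 28.7, 50.2 and 110 FPKM at mid-day. DRD1 and DRD2 differed by 0.11 and 0.35 on the log2 scale, and both overlapped between the groups. TH, which makes dopamine, was under 1.2 FPKM in all 6 libraries and not tested, as were DDC, SLC6A3, MTNR1A and MTNR1B. None of the 7 tested genes of this list had an unadjusted p under 0.05.

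Phototransduction genes differed little, and limma called none of them. The mean log2 value was higher at mid-day in 7 of 11 tested cone genes, in 4 of 12 rod genes and in 4 of 11 regulators shared by both cell types. It was higher in 54.4% of all genes tested. Of 11 tested cone genes, 2 had an unadjusted p under 0.05, both higher (4.9% of all genes). The list median was 0.17 against 0.02 over all genes tested. PDE6C, the catalytic subunit of the cone phosphodiesterase, was at 32.5, 30.4 and 31.3 FPKM at dawn and 47.6, 41.5 and 37.2 FPKM at mid-day, with no overlap (log2 difference 0.41 ± 0.13 SE, limma adjusted p = 0.491). ARR3, cone arrestin, was at 237 to 260 FPKM at dawn and at 332, 290 and 266 FPKM at mid-day (limma adjusted p = 0.619). Mid-day 1 was the highest library in both genes, and without it and dawn 2 the cone list median was 0.06 and neither gene had an unadjusted p under 0.05. PDE6H, the inhibitory subunit and the most abundant cone gene, differed by 0.17 ± 0.10 (SE). OPN1MW and OPN1LW, the pigments for longer wavelengths, were listed at 0 in all 6 libraries.

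Of 12 tested rod genes, 1 had an unadjusted p under 0.05, lower at mid-day (2.9% of all genes), and the list median was -0.12. That gene was GNGT1, the gamma subunit of rod transducin, at 267, 243 and 289 FPKM at dawn and at 201, 215 and 250 FPKM at mid-day, where the groups overlapped (limma adjusted p = 0.619). GNAT1 differed by -0.08 ± 0.13 (SE). Regulators used by rods and cones included GUCY2D, the guanylate cyclase that restores cyclic GMP after light, at 46.0, 58.6 and 48.0 FPKM at dawn and 65.0, 67.4 and 62.7 FPKM at mid-day. Its groups did not overlap, with a log2 difference of 0.36 ± 0.09 (SE, limma adjusted p = 0.425) and of 0.46 without the libraries that stood apart. GUCA1A, the calcium sensor that switches on this cyclase, was at 283 to 332 FPKM at dawn and at 428, 477 and 314 FPKM at mid-day (limma adjusted p = 0.622). These were the 2 of 11 tested shared regulators at an unadjusted p under 0.05, both higher (4.9% of all genes), while the list median was -0.12. GNGT1 and GUCA1A did not pass it without mid-day 1 and dawn 2, and GUCY2D did. Among 11 outer segment genes, PRCD, a small disc protein, was the 1 gene at that level, higher at mid-day (4.9% of all genes). It was at 43.1 to 51.3 FPKM at dawn and 56.6 to 64.2 at mid-day, and PRPH2 and ROM1 differed by -0.13 and 0.14. Without mid-day 1 and dawn 2, FSCN2 and TULP1 also passed that level, both higher at mid-day. None of the 12 visual cycle genes passed it with all libraries, and RDH11, lower at mid-day, passed it without mid-day 1 and dawn 2. No gene of these lists had an adjusted p under 0.05 in the authors' deposited table.

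Photoreceptor transcription factors differed in direction. RAX2, a homeobox factor of photoreceptors, was at 195, 197 and 186 FPKM at dawn and 243, 237 and 260 FPKM at mid-day. The groups were well separated, and the mean was 1.28-fold higher at mid-day (log2 difference 0.36 ± 0.07 SE, limma adjusted p = 0.380). The authors' deposited table gave RAX2 an adjusted p of 0.00021. CRX, which drives most photoreceptor genes, was at 357, 315 and 312 FPKM at dawn and at 206, 254 and 301 FPKM at mid-day. OTX2, which acts upstream of CRX, was at 117, 111 and 102 FPKM at dawn and at 79.9, 73.5 and 103 FPKM at mid-day. Their log2 differences were both -0.38, and the limma adjusted p of OTX2, the smaller of the pair, was 0.499, and mid-day 3 was the highest of its group in both. Without mid-day 1 and dawn 2 they differed by -0.27 and -0.32, and OTX2 no longer had an unadjusted p under 0.05. NRL, which sets the rod fate, differed by -0.14 ± 0.12 (SE), and 3 of 8 factors in all had an unadjusted p under 0.05 (7.8% of all genes).

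At the photoreceptor synapse, MPP4 gave 1 of the clearest differences. MPP4, a scaffold protein of the photoreceptor terminal, was at 90.9, 106 and 109 FPKM at dawn and at 68.7, 68.3 and 71.2 FPKM at mid-day. Dawn was 102 ± 9.64 FPKM (SD) and mid-day 69.4 ± 1.57 FPKM (SD), a 1.47-fold higher mean at dawn. The log2 difference was -0.55 ± 0.09 (SE, limma adjusted p = 0.380), and -0.51 without the libraries that stood apart. Levels at dusk, 59.5 to 72.4 FPKM, were near those of mid-day, and levels at midnight were 112 to 124 FPKM. SYT1, the calcium sensor of transmitter release, was at 178, 175 and 171 FPKM at dawn and 153, 145 and 150 FPKM at mid-day. In the control pools SYT1 was at 93.4 and 90.5 FPKM, so it is not particular to the retina. Its difference was small, at -0.23 ± 0.07 (SE) on the log2 scale, but its groups were well separated (limma adjusted p = 0.478). Adjusted p in the authors' deposited table was 1.8e-07 for MPP4 and 8.4e-05 for SYT1. MPP4 and SYT1 were the 2 of 13 tested ribbon synapse genes at an unadjusted limma p under 0.05, both lower (2.9% of all genes). The list median was -0.03.

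Heat shock genes, which encode the chaperones that refold damaged proteins, gave the largest list median among the pathway lists of nuclear genes, at 0.52 on the log2 scale against 0.02 over all genes tested. All 10 tested members had a higher mean at mid-day, 4 of them at an unadjusted p under 0.05, and in 6 the groups did not overlap. Over all genes tested, 54.4% had a higher mean log2 value at mid-day, 4.9% were higher at that p and 7.28% were higher without overlap. HSPA8, the constitutive Hsp70, was at 70.6, 88.4 and 78.3 FPKM at dawn and 148, 120 and 99.1 FPKM at mid-day. The mean was 1.55-fold higher at mid-day (log2 difference 0.62 ± 0.13 SE, limma adjusted p = 0.380). HSPD1, the mitochondrial Hsp60, was at 21.2, 21.7 and 22.9 FPKM at dawn and 32.0, 31.9 and 27.0 FPKM at mid-day. HSPH1, which recharges Hsp70 with ATP, was at 25.4, 19.4 and 22.8 FPKM at dawn and 62.0, 43.7 and 28.9 FPKM at mid-day. HSPA1B, an inducible Hsp70, was at 2.05 to 2.54 FPKM at dawn and 5.65, 4.25 and 4.31 FPKM at mid-day. In each of these 4 genes all mid-day libraries lay above all dawn libraries. HSPA1A and HSPA1B are near-identical copies, so reads may be divided between them.

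The authors' deposited table had HSPA8, HSPD1 and HSPA1B higher at mid-day, with adjusted p of 0.035, 0.003 and 0.0073, and HSPH1 at 0.051. Other members were less clear. HSP90AA1, the inducible Hsp90, differed by 0.19 ± 0.11 (SE), and CRYAB, a small heat shock protein, was high in mid-day 2 alone at 46.9 FPKM against 18.4 to 29.8 in the other 5 libraries. Without mid-day 1 and dawn 2, HSPH1 and HSPA1B no longer had an unadjusted p under 0.05, HSPA8 and HSPD1 did, and CRYAB reached it. The list median was 0.48 without those libraries, that is, in mid-day 2 and 3 minus dawn 1 and 3. It was 0.54 in mid-day 1 minus dawn 2. The summed FPKM of the 11 genes was 237, 246 and 242 at dawn and 402, 358 and 289 at mid-day. It was 386, 519 and 415 at dusk and 273, 278 and 263 at midnight. Mid-day 1 was the highest of the mid-day libraries and also the one high in ganglion cell markers, whose part in the result was not tested.

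**Figure D3:**
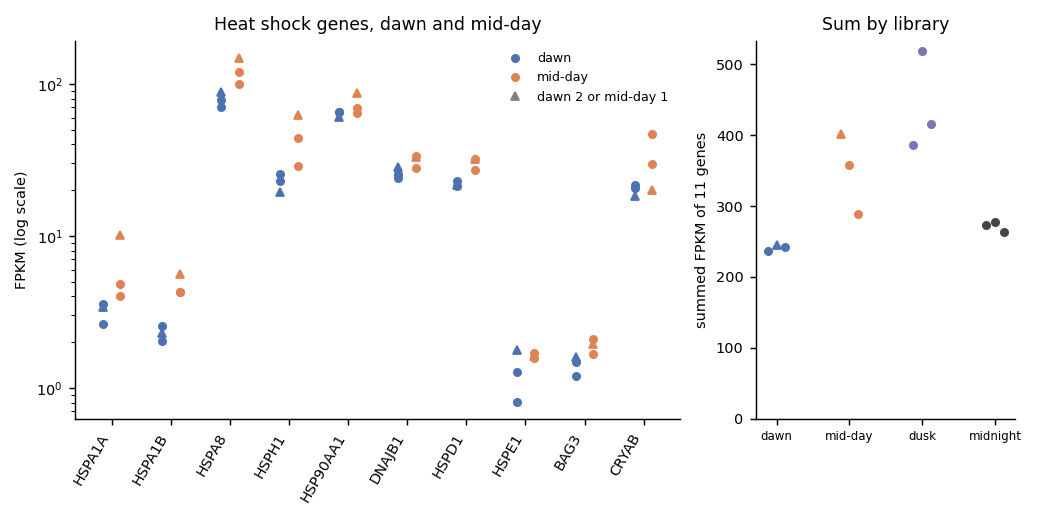
Left, FPKM of the 10 tested heat shock genes in the dawn and mid-day libraries (log axis); right, the summed FPKM of 11 heat shock genes in the 12 retina libraries by time (1 point per library; triangles are dawn 2 and mid-day 1). Sums run from 237 to 246 at dawn and from 289 to 402 at mid-day.

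Stress genes of the endoplasmic reticulum had a list median of 0.22. Of 9 tested, 2 had an unadjusted p under 0.05, both higher at mid-day (4.9% of all genes). ATF4, the transcription factor of the integrated stress response, was at 5.65 to 6.32 FPKM at dawn and 6.95 to 8.33 at mid-day (log2 difference 0.33 ± 0.09 SE). SDF2L1, a chaperone partner in the endoplasmic reticulum, was at 0.900 to 0.975 FPKM at dawn and 1.58 to 1.81 at mid-day. Neither gene was called in the authors' deposited table.

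Immediate early genes, which neurons induce within minutes of stimulation, did not differ as 1 group. Of 14 tested, 4 had an unadjusted p under 0.05, all higher at mid-day (4.9% of all genes), and 8 had a higher mean (54.4% of all genes). NR4A2, an orphan nuclear receptor, was at 2.95, 2.87 and 2.05 FPKM at dawn and 6.54, 8.42 and 3.15 FPKM at mid-day (log2 difference 0.98 ± 0.31 SE, limma adjusted p = 0.489). DUSP1, a phosphatase of MAP kinases, was at 25.8, 18.4 and 30.1 FPKM at dawn and 45.4, 62.6 and 29.3 FPKM at mid-day. JUN and JUNB were the other 2, with log2 differences of 0.46 and 0.76. DUSP1 and JUNB overlapped between the groups through mid-day 3, and NR4A2 and JUN did not overlap. FOS was at 7.08, 6.74 and 6.15 FPKM at dawn and 5.07, 8.53 and 4.12 FPKM at mid-day, and EGR1 ran from 1.09 to 5.68 FPKM over both groups. FOSL2, IER2, IER3, NR4A1, NR4A3, BTG2, CYR61 and ZFP36 did not reach that level, and FOSB, EGR2, EGR3, EGR4, ARC, ATF3, KLF4 and NPAS4 were too low to be tested. Without mid-day 1 and dawn 2, DUSP1 and JUNB no longer had an unadjusted p under 0.05, NR4A2 and JUN did, and the list median was 0.13, against 0.22 with them.

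Of the glycolysis genes, 4 of 19 tested had an unadjusted p under 0.05, all higher at mid-day (4.9% of all genes). The list median was 0.09. PFKL, a phosphofructokinase and so an enzyme of the committed step of glycolysis, was at 20.6, 21.6 and 18.0 FPKM at dawn and 27.9, 28.6 and 28.3 FPKM at mid-day. The mid-day mean was 1.41-fold higher, and the mid-day libraries differed from each other by less than 1 FPKM (log2 difference 0.49 ± 0.09 SE, limma adjusted p = 0.380). ENO1, an enolase, was at 129, 137 and 126 FPKM at dawn and 159, 174 and 167 FPKM at mid-day. The authors' deposited table gave PFKL and ENO1 adjusted p of 0.00016 and 0.00026. ALDOA, an aldolase, and SLC2A1, the glucose transporter GLUT1, differed by 0.21 ± 0.09 and 0.22 ± 0.08 (SE), and ENO2, the most abundant gene of the list, by -0.01 ± 0.11 (SE). Without mid-day 1 and dawn 2, PFKL and ENO1 had an unadjusted p under 0.05 and ALDOA and SLC2A1 did not. GAPDH was at 145 to 160 FPKM in 4 libraries and at 303 and 348 FPKM in dawn 2 and mid-day 1.

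**Figure D4:**
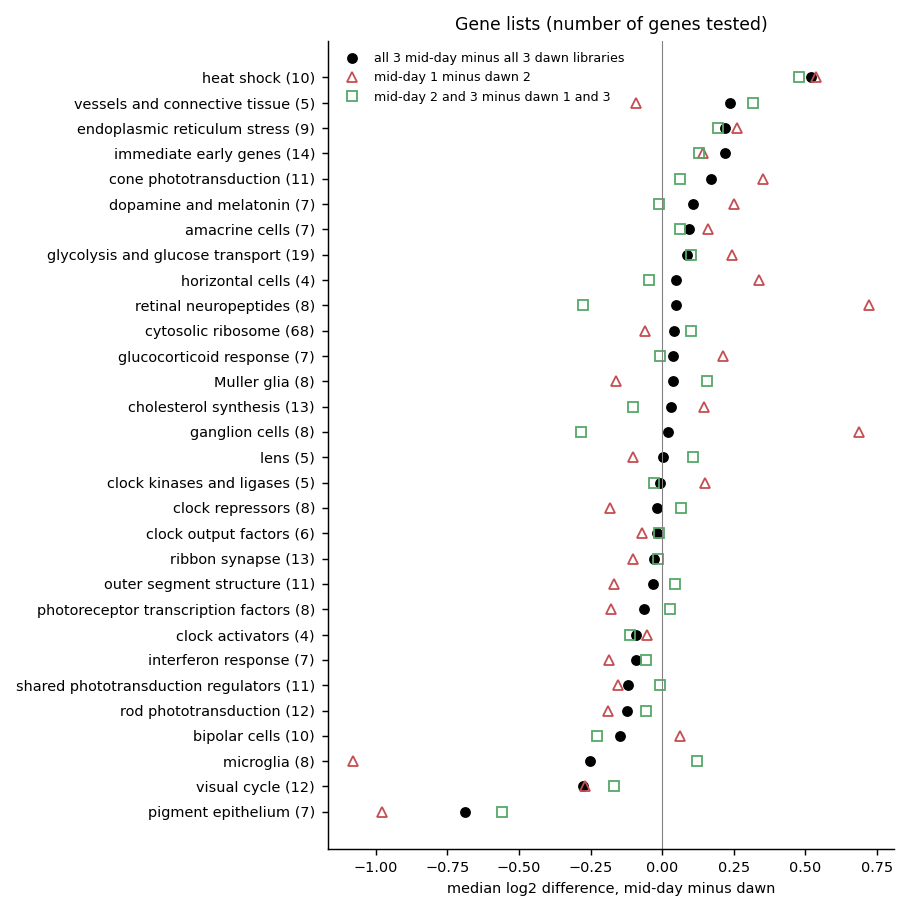
Median log2 difference, mid-day minus dawn, of each gene list with at least 4 tested genes (black, all 3 against 3 libraries; red triangles, mid-day 1 minus dawn 2; green squares, mid-day 2 and 3 minus dawn 1 and 3). Heat shock genes lie near 0.5 in all 3, while ganglion cell and microglia genes have opposite signs in the red and green sets.

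Lists of other cells and pathways gave few genes at an unadjusted p under 0.05, the level that 7.8% of all genes tested reached. Among the Muller glia genes, KCNJ10, the potassium channel that clears potassium released by neurons, was the 1 of 8, at 15.7 to 17.8 FPKM at dawn and 19.1 to 23.3 at mid-day (limma adjusted p = 0.454). SLC32A1, the vesicular transporter of inhibitory amacrine cells, was the 1 of 7 in its list, and LSS, a sterol synthesis enzyme, the 1 of 13 in its list. Without mid-day 1 and dawn 2, SLC32A1 did not pass that level and KCNJ10 and LSS did. Genes that passed it only without those libraries were AQP4 of Muller glia, LRIT3 of bipolar cells, CRYGC of lens and SLC26A4 of pigment epithelium. The ganglion cell list had a median of 0.69 in mid-day 1 minus dawn 2, with 8 of 8 genes positive, and of -0.28 in the other set, with 0 of 8 positive. Microglia genes had medians of -1.08 and 0.12 in those sets. With all libraries, no gene of the ganglion cell, microglia, pigment epithelium, bipolar, horizontal, lens or vessel lists had an unadjusted p under 0.05. PDK4, which switches off pyruvate oxidation and responds to glucocorticoids and fasting, was at 19.4, 24.0 and 22.8 FPKM at dawn and 9.08, 11.4 and 16.7 FPKM at mid-day, without overlap. The limma adjusted p of PDK4 was 0.974, and the authors' deposited table gave it an adjusted p of 0.049. Of 68 tested genes of the cytosolic ribosome, 0 were higher and 1 lower at that level.

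Across the whole table, the 12 genes in each direction with the smallest unadjusted limma p, a mean FPKM of at least 2 and no overlap were chosen by rank, so their separation is part of the rule. Those higher at mid-day were NCOA5, ATP5D, DYRK1B, ZFAND2B, MAB21L2, CHID1, C14orf1, TMEM132A, ISOC1, PWP2, SOX2 and PFKL, with log2 differences of 0.34 to 0.86. NCOA5, a coactivator of nuclear receptors, was at 19.8, 20.9 and 18.4 FPKM at dawn and 27.9, 25.6 and 24.9 FPKM at mid-day. ATP5D, the delta subunit of the mitochondrial ATP synthase, was at 26.6, 27.9 and 27.0 FPKM at dawn and 36.6, 33.9 and 32.9 FPKM at mid-day. PWP2 acts in the maturation of ribosomal RNA, and MAB21L2 is needed for eye development. SOX2, a transcription factor kept in Muller glia and some amacrine cells, had the largest log2 difference of the 12, from 7.64, 7.46 and 10.1 FPKM at dawn to 16.4, 17.1 and 13.2 FPKM at mid-day. It rested on 43 to 114 reads per library, and the authors' deposited table gave it an adjusted p of 0.19.

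Those lower at mid-day were TRAJ2, MPP4, ZC3H6, INO80C, AGO4, ZMYND12, UXS1, MYL5, RAB28, FEZ2, NAA25 and TRAJ9, with log2 differences from -0.27 to -1.28. AGO4, an Argonaute protein that binds microRNAs, was at 37.6, 40.3 and 40.0 FPKM at dawn and 28.2, 30.8 and 30.7 FPKM at mid-day. RAB28, a GTPase of the photoreceptor outer segment whose loss causes cone-rod dystrophy in humans, was at 67.6, 61.1 and 64.3 FPKM at dawn and 41.5, 41.8 and 53.6 FPKM at mid-day. MYL5, a myosin light chain, was at 4.87, 2.46 and 3.44 FPKM at dawn and 0.941, 1.39 and 1.11 FPKM at mid-day. Its midnight levels were 6.43 to 8.56 FPKM and its dusk levels 0.913 to 1.87 FPKM. INO80C is a subunit of a chromatin remodeller, UXS1 makes UDP-xylose, and NAA25 is a subunit of an N-terminal acetyltransferase. TRAJ2 and TRAJ9 are short joining segments of a T cell receptor gene and rested on 4 to 12 and 7 to 15 reads per library, so their values are uncertain. For every one of these 24 genes the limma adjusted p was 0.380. The authors' deposited table had 9 of the 12 higher and 8 of the 12 lower genes at an adjusted p under 0.05 (0.468% and 0.383% of all genes there). That table rests on the same mid-day and dawn libraries by which the 24 genes were ranked, so these counts are not separate support.

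**Figure D5:**
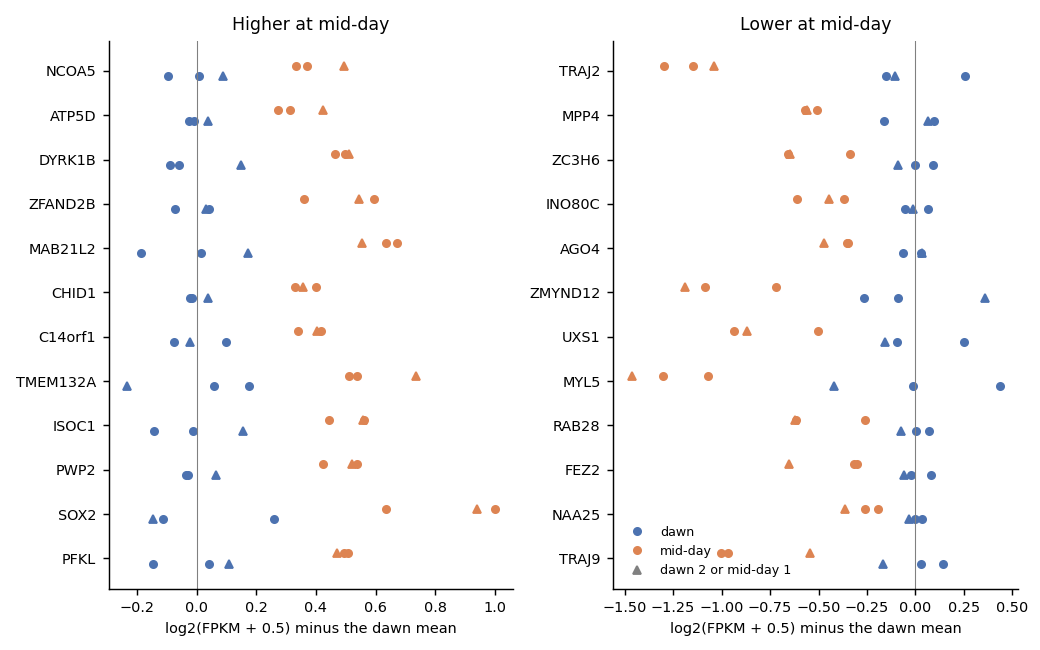
The 24 genes with the smallest unadjusted limma p, 12 higher (left) and 12 lower (right) at mid-day, as log2(FPKM + 0.5) in each library minus the mean of the 3 dawn libraries (blue, dawn; orange, mid-day; triangles, dawn 2 and mid-day 1). Dawn and mid-day do not overlap in any of them, which the choice of genes required of every library.

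The genes with the smallest adjusted p in the authors' deposited table were DUSP4, TPSD1, ATOH8, AC005618.6, PCDHGA4 and PFKL, higher at mid-day, and ANXA4, MPP4, AGO4, DCHS2, SYT1 and LPGAT1, lower. DUSP4, a phosphatase of MAP kinases, was at 5.24, 5.03 and 5.94 FPKM at dawn and 8.76, 8.87 and 8.91 FPKM at mid-day. ATOH8, a basic helix-loop-helix factor, was at 0.751, 0.656 and 0.806 FPKM at dawn and 2.80, 2.80 and 1.95 FPKM at mid-day. Both were low to moderate genes with tight groups, and their log2 differences were 0.67 ± 0.13 and 1.27 ± 0.20 (SE) with a limma adjusted p of 0.380 each. ANXA4, a calcium-dependent membrane-binding protein, was at 2.75, 2.47 and 2.24 FPKM at dawn and 0.835, 0.901 and 0.689 FPKM at mid-day. Its mean was 3.08-fold higher at dawn, and the authors' deposited table gave it the smallest adjusted p of the comparison, 3.1e-14. Its dusk levels were 2.50 to 2.79 FPKM and its midnight levels 1.32 to 2.74 FPKM. TPSD1, a mast cell tryptase, was at 4.65, 2.75 and 4.57 FPKM at dawn and 14.9, 21.3 and 15.8 FPKM at mid-day, but from 0.709 to 26.0 FPKM within midnight alone. Its limma adjusted p, with a spread taken over all 4 times, was 0.652.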

How the data were processed

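Total RNA of macaque retina was sequenced. The submitters' processing notes name STAR 2.3.0e, featureCounts of Subread, FastQC, DESeq2 and the human build hg19. Annotation and strand setting are not given in the sources used here. Human gene models were thus used for macaque reads, and reads of near-identical, overlapping or antisense genes may be divided or lost. The authors deposited FPKM for 50308 genes. Their deposited table of mid-day against dawn holds, per the file headers, a mean normalised count (a signal), a log2 fold change, a test score and p-values, from the same 6 libraries.

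Whole reads were recovered from the FPKM steps for 42804 of 42804 genes above 0 (tolerance 0.0001) and gave depths of 16.9 to 21.4 M reads in retina. limma 3.58.1 under R 4.3.3 was fitted, two-sided, on log2(FPKM + 0.5) over 12 libraries and 4 times, with a trend and no block. Fold changes on that scale understate low genes. Same-numbered libraries came from different animals per the labels, so no pairing was used. Genes had to reach an FPKM of 1 in 3 or more libraries. The chi-square per gene between libraries of 1 group, 7.59 to 34.2, exceeded sampling noise in each pair. It was 21.8 to 34.2 in pairs with mid-day 1 or dawn 2, and 7.59 and 14.0 in the others. The p-values measure the spread between libraries, in which animal, piece of retina and library cannot be told apart.

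Named genes were the 12 per direction with the smallest unadjusted p (mean FPKM of at least 2, no overlap, no clone or small RNA name), all members of the clock, melatonin, dopamine and immediate early lists, members of other lists with an unadjusted p under 0.05 or among the 2 most abundant, and 6 per direction from the authors' deposited table. HSPA1A, HSP90AA1, CRYAB, GAPDH and PDK4, and those under other observations, were chosen after their values were seen. A few list members are not reported here. The comparison, the 36 gene lists and the rules were chosen with earlier results of these data known. RefSeq genes of T2T-MMU8v2.0, used for names alone, held 16438 of the names (32.7%). The alternatives were 20 listed beforehand and 2 chosen after seeing the data. Summaries and plots used pandas 2.3.3, numpy 2.4.6, matplotlib 3.10.9 and Python 3.11.15.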

Additional observations from a re-analysis of the deposited data

How the results depend on the processing

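The count of genes with a limma adjusted p under 0.05 stayed at 0 in all but 3 alternatives. Without a filter on low values it was 2 (AC087237.1 and RPS10P21, both at or under 0.505 FPKM), and without mid-day 1 and dawn 2, or without dawn 2 alone, it was 1 (AL121895.1, on 0 to 2 reads per library). The count at an unadjusted p under 0.05 was 1707. It moved beyond 1.5 times to 1016 with median centring, under the 1094.5 of chance alone, and to 3071 with library weights. It was 1876 without mid-day 1 and dawn 2, 1611 with voom on recovered reads, and 2436 with voom and quality weights, an alternative chosen after seeing the data. Leaving out 1 library at a time gave 0 to 1 genes called and 1213 to 2185 at an unadjusted p under 0.05. With replicate number as a block, 0 genes were called and 1643 had an unadjusted p under 0.05. Same-numbered deviations correlated at -0.73, -0.683 and 0.671, and those of mid-day 1 and dawn 2 at 0.875. Mid-day 1 and dawn 2 stood apart together under different numbers. These correlations therefore cannot show whether the numbers pair the libraries. With 3 animals a time, genes of low level and the cell mix of each piece limit what could be seen.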

Other observations

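The gamma protocadherins, cell adhesion proteins by which retinal neurons tell themselves from others, had higher means at mid-day across their cluster; they and the genes below were chosen after their values were seen. All 22 listed genes had a positive log2 difference, in 18 the groups did not overlap (7.28% of all genes tested were higher without overlap), and 10 had an adjusted p under 0.05 in the authors' deposited table (0.851% of all genes there). The unadjusted limma p was under 0.05 for 8 of the 22 (4.9% of all genes tested were higher at that p), and for 3 without mid-day 1 and dawn 2. PCDHGA3 was at 3.62, 4.40 and 3.59 FPKM at dawn and 5.72, 6.21 and 6.83 FPKM at mid-day. PCDHGA4, at 4.98 to 5.42 FPKM at dawn and 7.79 to 9.20 FPKM at mid-day, ran from 3.84 to 9.75 FPKM within dusk alone. The 12 A-type genes had a median log2 difference of 0.57, the 7 B-type genes 0.36 and the 3 C-type genes 0.13. These genes share their last exons and overlap each other on the genome, so their reads cannot be fully told apart and they are not independent counts. limma adjusted p was above 0.05 for all 22.

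Chaperone partners outside the heat shock list were mixed. AHSA1, which activates Hsp90, was at 20.1, 22.7 and 21.0 FPKM at dawn and 42.3, 34.8 and 28.1 FPKM at mid-day, and STIP1, which links Hsp70 to Hsp90, was at 22.5, 25.9 and 22.9 FPKM at dawn and 42.5, 35.6 and 29.2 FPKM at mid-day. Their adjusted p in the authors' deposited table was 0.014 and 0.048. HSPBP1, DNAJB11, CCT7 and HSPB8 had higher means at mid-day but adjusted p of 0.166 to 0.303 in the authors' deposited table. HSPA4, an Hsp70 relative, had the opposite direction, at 132, 121 and 122 FPKM at dawn and 107, 99.8 and 100.4 FPKM at mid-day. The adjusted p of HSPA4 in the authors' deposited table was 0.00089, smaller than those of HSPA8, HSPD1, HSPA1B, AHSA1 and STIP1. Transporters and channels included SLC6A6, the taurine transporter, at 232, 179 and 195 FPKM at dawn and 118, 138 and 143 FPKM at mid-day, with an adjusted p of 0.00082 in the authors' deposited table. SLC1A2, a glutamate transporter, was at 88.2, 76.4 and 99.4 FPKM at dawn and 39.1, 52.7 and 66.8 FPKM at mid-day, with an adjusted p of 0.033 there. FABP5, a fatty acid binding protein, was at 6.88, 6.39 and 5.04 FPKM at dawn and 21.7, 17.5 and 9.05 FPKM at mid-day.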
